A study of Homo sapiens with 8 samples.

Results

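The genes described here encode the subunits of the proteasome, the protease that degrades ubiquitin-tagged proteins. A barrel-shaped 20S core, built from rings of alpha subunits (PSMA genes) and beta subunits (PSMB genes), holds the proteolytic sites. A 19S cap, built from a base with a ring of ATPases (PSMC genes) and a lid (most PSMD genes), binds, unfolds and deubiquitinates the substrate. Subunit transcripts are usually kept at similar levels and are raised together by the transcription factor NFE2L1 (also called NRF1, and distinct from the respiratory factor of that name) when proteasome activity is limiting.

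Members were the genes whose symbol was PSMA, PSMB, PSMC or PSMD followed by a number, leaving out PSMB8, PSMB9 and PSMB10, the interferon-inducible subunits that replace core subunits in the immunoproteasome. There were 36 in both count tables, 16 of the core and 20 of the cap, among 42125 genes listed in the first table and 23393 in the second. All 8 libraries were mRNA libraries from HCT116, a human colorectal cancer line, stably carrying a doxycycline-inducible shRNA against SAE2 (Tet-On shSAE2). SAE2, encoded by UBA2, is a subunit of the enzyme that activates SUMO. In the first experiment these cells received control siRNA or TFAP2C siRNA for 48 hours (2 libraries each). TFAP2C is a transcription factor of the AP-2 family. In the second, cells were treated for 5 days with DMSO (control) or with 1 µg/mL doxycycline (SAE2 kd), again with 2 libraries each. The siRNA cells also carried the shRNA construct. Doxycycline was given only to the SAE2 kd cells, so the drug and the induced shRNA cannot be told apart. The work used 1 cell line, and nothing states whether replicates were separate cultures, so p-values measure the spread between these libraries, which may be technical.

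Total counts were 20785035 to 24465109 in the siRNA libraries and 18213739 to 20607813 in the others. TFAP2C mRNA, the check of the siRNA, was at 18.9 and 20.5 CPM (counts scaled by the TMM-adjusted library size) with control siRNA and at 3.46 and 4.30 CPM with TFAP2C siRNA (log2 fold change -2.34, SE 0.13, adjusted p = 7.67e-06, edgeR quasi-likelihood test). UBA2 mRNA was at 162 and 146 CPM in the controls and at 147 and 153 CPM in the libraries labelled SAE2 kd (log2 fold change -0.04, edgeR adjusted p = 0.766). The targeted mRNA was thus not lower where the label says knockdown, so those libraries are called by their label throughout. The epithelial markers EPCAM, KRT8, KRT18, KRT19 and CDH1 summed to 2782 to 3380 CPM in the siRNA libraries and to 2132 to 2480 CPM in the others. Their sum was higher in both knockdown libraries than in both controls of each experiment, carried with TFAP2C siRNA by the keratins (EPCAM -0.0016 and CDH1 -0.05 on the log2 scale), and the part of this in the results below was not tested. The epithelial marker VIL1 had at most 3 counts in a library. Of the markers of other cells, COL1A1 was at 14.9 to 47.5 CPM and the others had at most 15 counts in a library.

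Promoter sequences from RefSeq (GRCh38.p14) were found for 31 of the 36 members (all but PSMA7, PSMB1, PSMB6, PSMB7 and PSMD4), and the 250 bases upstream of each gene's most upstream listed start were read. Of these, 4 are shown: PSMD7, which had the largest estimate with TFAP2C siRNA, PSMB5, which had the lowest adjusted p in the comparison of both experiments, PSMD13, which was next and held an AP-2 match, and PSMB3, the core member whose promoter held the antioxidant response element core that NFE2L1 binds. They were chosen after the values were seen. Capitals mark matches, on either strand, to TGACNNNGC (antioxidant response element core), GCCNNNGGC (AP-2), CCGGAAG (ETS factors) or CCAAT (NF-Y), or to the motif of the respiratory factor NRF1.
PSMD7 (chr16:74296564-74296813, plus strand): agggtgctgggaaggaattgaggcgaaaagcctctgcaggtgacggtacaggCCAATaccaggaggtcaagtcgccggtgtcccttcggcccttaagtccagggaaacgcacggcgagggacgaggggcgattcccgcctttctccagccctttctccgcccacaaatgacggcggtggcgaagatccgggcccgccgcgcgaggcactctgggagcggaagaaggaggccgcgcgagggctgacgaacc
PSMB5 (chr14:23035221-23035470, minus strand): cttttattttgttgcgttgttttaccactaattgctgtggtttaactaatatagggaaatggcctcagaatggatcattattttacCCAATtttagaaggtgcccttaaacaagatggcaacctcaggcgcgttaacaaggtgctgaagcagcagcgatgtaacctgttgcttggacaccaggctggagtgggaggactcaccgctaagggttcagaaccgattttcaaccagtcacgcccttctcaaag
PSMD13 (chr11:236726-236975, plus strand): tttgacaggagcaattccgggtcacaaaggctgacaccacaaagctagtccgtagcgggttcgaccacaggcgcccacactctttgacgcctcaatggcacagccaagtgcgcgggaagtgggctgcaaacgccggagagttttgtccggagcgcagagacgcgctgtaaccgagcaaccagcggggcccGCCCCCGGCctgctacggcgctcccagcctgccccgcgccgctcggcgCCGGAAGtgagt
PSMB3 (chr17:38752491-38752740, plus strand): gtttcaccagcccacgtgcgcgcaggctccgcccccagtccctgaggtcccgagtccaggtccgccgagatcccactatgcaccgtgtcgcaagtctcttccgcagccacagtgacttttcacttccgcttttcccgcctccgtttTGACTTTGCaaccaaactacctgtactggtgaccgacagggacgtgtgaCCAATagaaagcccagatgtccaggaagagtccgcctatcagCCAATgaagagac

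Over the 31 member promoters, the ETS letters were in 8 (25.8%), against 8.78% of 27305 promoters of the same length. They were in 1 of 12 core promoters and 7 of 19 cap promoters. The 1 core promoter was that of PSMA8, which had 0 counts in all 8 libraries. The AP-2 letters were in 7 (22.6%, against 19.6% of all promoters), in PSMA1, PSMC1, PSMC3, PSMD13, PSMD2, PSMD3 and PSMD6. The antioxidant response element core was in 5 (16.1%, against 11.1%), in PSMB3, PSMD12, PSMD3, PSMD5 and PSMD9. In PSMD3 it overlapped the AP-2 match. CCAAT was in 15 (48.4%, against 33%), and the respiratory NRF1 letters in 0 (against 1.13%). These are matches of letters and no evidence of binding, and the promoters compared were not matched for base composition. The RefSeq start was at or within 10 bases of the start in the first count table for the 4 genes shown, but lay 123249 bases from it for PSMA1, 13684 for PSMA6 and 3389 for PSMC2.

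Of the 36 members, 34 passed the filter on low counts in each table. The other members were PSMA8, the testis-specific alpha subunit, with 0 counts in all 8 libraries (which allows at most 0.123 to 0.165 CPM for 3 counts), and PSMB11, the thymus-specific catalytic subunit, with at most 2 counts in a library. Levels between genes were compared per length as RPKM (CPM divided by gene length in kilobases), with each table's own gene lengths. With control siRNA the highest were the beta ring gene PSMB3 (109 ± 2.12 RPKM, SD, n = 2), PSMB4 (93.9 ± 1.12), PSMA7 (88.3 ± 1.29) and PSMB1 (87.9 ± 2.76), and the last 2 of these differed by less than their spread. In the DMSO controls the highest were PSMA7 (255 ± 4.02 RPKM), PSMB3 (216 ± 1.10), PSMB4 (184 ± 4.40) and PSMA3 (158 ± 4.80).

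The cap genes ran from PSMD2, the base scaffold that receives ubiquitin shuttles (60.2 and 154 RPKM in the control siRNA and DMSO controls), down to the ATPase gene PSMC1 (0.384 and 0.798 RPKM), the lowest member in both tables. Within the other groups, the highest were PSMC3 among the ATPases (51.6 and 108 RPKM), PSMD8 in the lid of the first table (56.1 RPKM), PSMD14 in the lid of the second (126 RPKM) and PSMD5 among the assembly chaperones (14.8 and 28.7 RPKM). The lowest were PSMA6 in the alpha ring (1.46 and 3.16 RPKM), PSMB2 in the beta ring (34.2 and 31.0 RPKM), PSMD6 in the lid (7.16 and 52.5 RPKM), PSMD9 among the chaperones (1.04 and 17.9 RPKM) and, among the other base subunits, PSMD1 in the first table (32.0 RPKM) and PSMD4 in the second (86.4 RPKM). These ranks depend on the listed lengths, which differed between the tables. They were 4.521 and 9.894 kb for PSMB2, 9.115 and 2.425 kb for PSMD6 and 6.498 and 1.061 kb for PSMA6. Without division by length, PSMB2 was the highest of the beta ring in the DMSO controls (307 CPM).

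**Figure D1:**
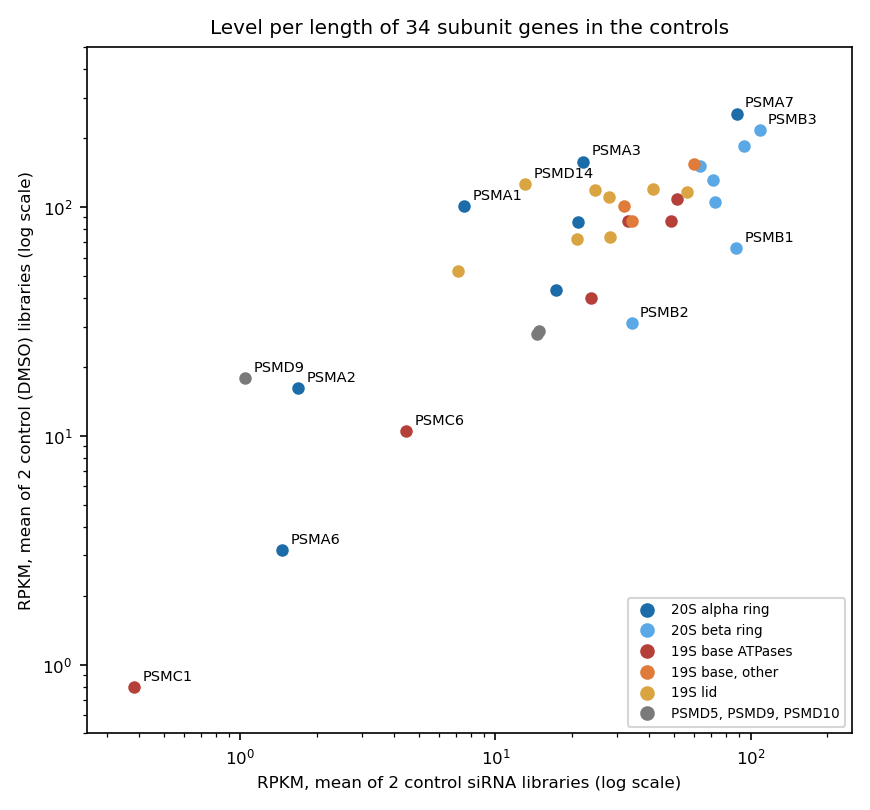
Level per length (RPKM, both axes log scale) of the 34 expressed members, with the mean of 2 control siRNA libraries on the x axis and of 2 DMSO control libraries on the y axis, coloured by structural group. PSMC1 is lowest on both axes, and PSMA1, PSMA2 and PSMD9 sit far lower on the x axis than genes of like level on the y axis.

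The count tables gave very different levels for some members in the same cell line, although they come from separate experiments that were counted on different annotations. PSMA1 was at 25.6 and 24.0 CPM with control siRNA and at 256 and 266 CPM in the DMSO controls, a ratio of 10.5. PSMA2, with 9.27 and 8.49 CPM against 83.1 and 86.2 CPM, had a ratio of 9.53. PSMD9 had a ratio of 4.71 and PSMA6 one of 0.355, against a median ratio of 1.64 over the 34 members. Ratios beyond a factor of 2 in either direction were found for 9 of the 34 members and for 22.4% of the 12158 genes tested in both tables.

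Rows whose listed strand and span overlap a member were found for 15 of the 36 members in the first table and 9 in the second. Some of these spans were very long. In the second table the same rows, among them MAPT and NSF, were listed for PSMB3, PSMB6, PSMD11 and PSMD3. KIR2DL4 was listed for both PSMC4 and PSMD8. In the first, some rows were likewise listed for both PSMA5 and PSMB2. Such listings need not mean a true overlap. For PSMA1, PSMA2 and PSMA6 the rows listed in the second table were COPB1 (a mean of 3753 counts), C7orf25 (264 counts) and KIAA0391. In the first, such rows held a mean of at most 1.5 counts for these genes and PSMD9. GENCODE (v44lift37) names 13 pseudogenes for PSMC1, 4 for PSMA6 and 3 for PSMA2, and 36 for 15 members in all. Of these, 0 were listed in either table. Reads of overlapping genes or near-identical copies might not be counted for a member, so the levels of PSMA1, PSMA2, PSMA6, PSMC1 and PSMD9 are uncertain. Whether overlap or copies account for the levels was not tested.

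The first comparison asked whether the subunit genes respond to loss of TFAP2C. Most had slightly higher estimates with TFAP2C siRNA, and none passed the threshold. In bulk RNA, fewer expressing cells and less RNA per cell cannot be told apart. Of the 34 tested members, 31 had a log2 fold change above 0 (49.1% of the 14991 genes tested did), and 27 to 33 did when 1 library was left out. The median was 0.12 for the core and 0.12 for the cap (-0.0038 over all genes), a median fold of 1.09 in each. No member was called at an adjusted p of 0.05 (0.740% of all genes were, 0.260% higher and 0.480% lower), by edgeR or by DESeq2, and the lowest adjusted p was 0.222 for PSMD7. At an unadjusted p of 0.05, 7 members were higher (5.68% of all genes) and 0 lower (6.92%) by edgeR, and 6 higher by DESeq2. Both TFAP2C siRNA libraries were above both controls for 25 of 34 members (22.4% of all genes) and below both for 0 (22.4%).

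**Figure D2:**
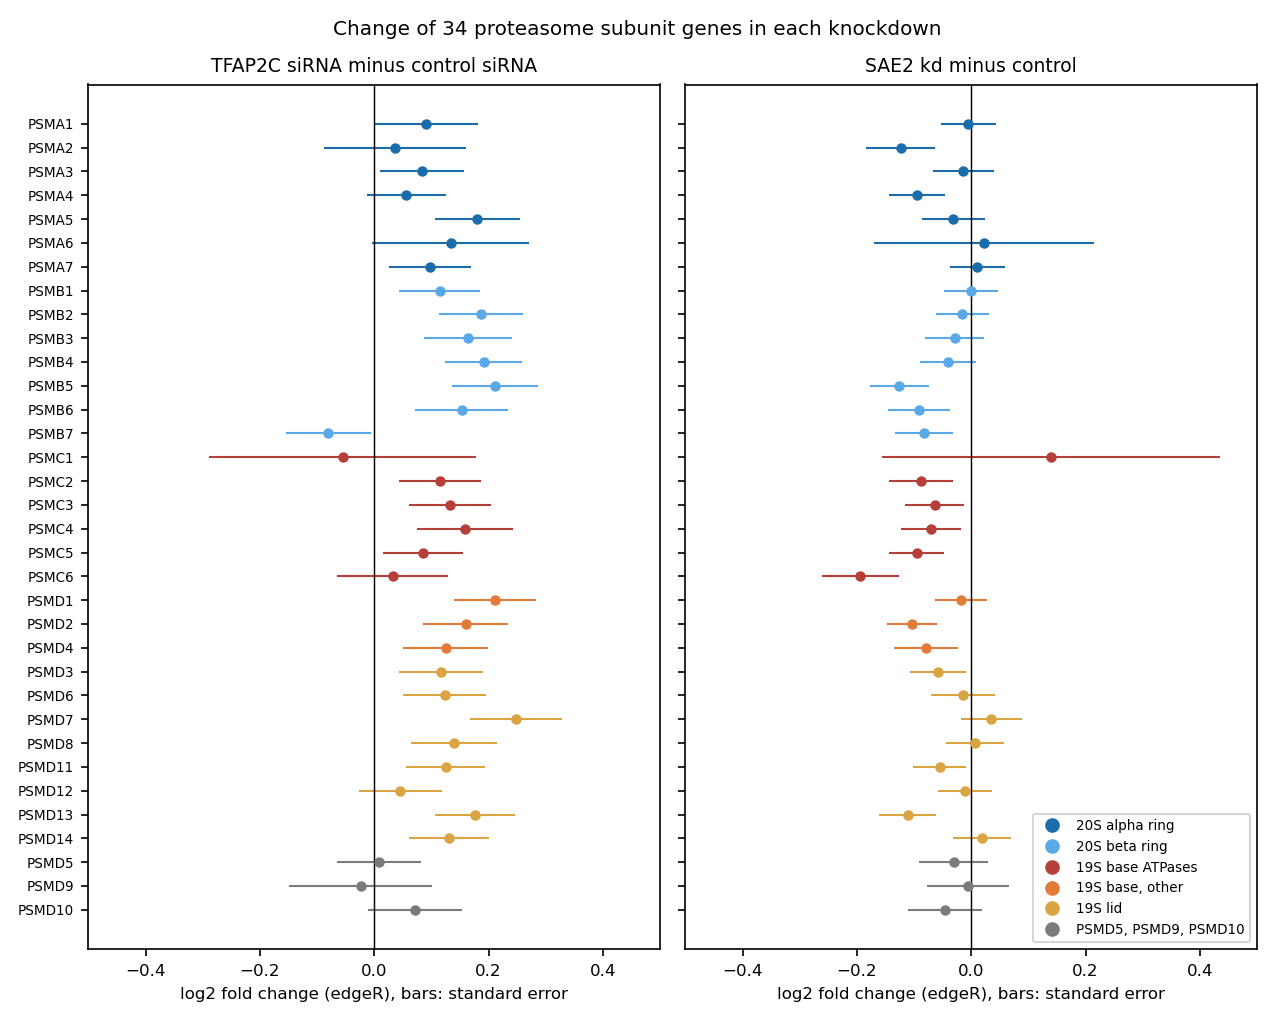
Log2 fold change (edgeR) of each of the 34 members in TFAP2C siRNA minus control siRNA (left) and SAE2 kd minus control (right), bars showing 1 standard error, ordered and coloured by structural group. On the left 31 members lie above 0 with medians of 0.12 for core and cap, and on the right 28 lie below 0.

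Among the lid subunits, 8 of 8 had an estimate above 0, with a median of 0.13. PSMD7, the scaffold partner of the deubiquitinase PSMD14 (chr16:74296814-74306288, GRCh38, promoter shown above), was at 79.6 and 71.9 CPM with control siRNA and at 93.5 and 86.5 CPM with TFAP2C siRNA. Both siRNA libraries lay above both controls, with a log2 fold change of 0.25 (SE 0.080, adjusted p = 0.222, edgeR). PSMD13, a structural lid subunit (chr11:236966-252984), was at 120 and 121 CPM in the controls and at 141 and 131 CPM with TFAP2C siRNA (0.18, SE 0.070, adjusted p = 0.330). PSMD14, the deubiquitinase that removes ubiquitin chains from the substrate, was at 95.1 and 95.9 CPM against 102 and 107 CPM (0.13, SE 0.070, adjusted p = 0.463).

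The base subunits other than the ATPases had a median of 0.16. Of these, 3 of 3 had both TFAP2C siRNA libraries above both controls, as did 22.4% of all genes. PSMD1, a scaffold that docks ubiquitin receptors, was at 170 and 161 CPM in the controls and at 199.96 and 183 CPM with TFAP2C siRNA (0.21, SE 0.072, adjusted p = 0.247). PSMD2 was at 298 and 297 CPM against 354 and 311 CPM (0.16, SE 0.074, adjusted p = 0.397). PSMD4, a ubiquitin receptor, was at 106 and 100.1 CPM against 117 and 108 CPM (0.12, SE 0.074, adjusted p = 0.512). The 6 ATPases, which form the ring that unfolds the substrate, had a median of 0.10 and ranged from -0.06 (PSMC1, at 1.87 to 2.83 CPM) to 0.16 (PSMC4). The assembly chaperones PSMD5, PSMD9 and PSMD10, which help to build the base and are not part of the finished cap, had a median of 0.01.

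In the beta ring 6 of 7 tested members were above 0, with a median of 0.16. PSMB5, which carries the chymotrypsin-like site (chr14:23016543-23035230), was at 125 and 126 CPM with control siRNA and at 154 and 136 CPM with TFAP2C siRNA. The groups did not overlap, and the first siRNA library was the higher (log2 fold change 0.21, SE 0.075, adjusted p = 0.269, edgeR). PSMB6, with the caspase-like site, was at 94.3 and 89.1 CPM against 109 and 95.05 CPM (0.15, SE 0.081, adjusted p = 0.461). PSMB7, with the trypsin-like site, was at 131 and 126 CPM against 128 and 115 CPM, so that the groups overlapped (-0.08, SE 0.075, adjusted p = 0.693). The catalytic subunits were thus not all on the same side of 0. The noncatalytic PSMB4 was at 201 and 198 CPM against 235 and 220.2 CPM (0.19, SE 0.068, adjusted p = 0.264). The alpha ring, which gates the core, had a median of 0.09, with 7 of 7 above 0 and PSMA5 the highest (0.18, adjusted p = 0.340). Among these, the counts of PSMA1, PSMA2 and PSMA6 are uncertain as given above.

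The shift differed between the siRNA libraries. Against the mean of the controls, the core median was 0.20 on the log2 scale in TFAP2C siRNA replicate 1 and 0.07 in replicate 2, and the cap median was 0.15 and 0.08. The controls themselves stood at 0.03 and -0.03 for the core and 0.02 and -0.02 for the cap. Of 34 members, 30 were above 0 in each TFAP2C siRNA library, against 27 in control siRNA replicate 1 and 7 in replicate 2. Most members thus also differed in the same direction between the control libraries. The TFAP2C siRNA libraries were also less alike than any other pair, with a chi-square per degree of freedom of 9.90 over 13389 genes against 2.80 for the control siRNA pair. Without replicate 2, 16 members were called higher (PSMA5, PSMB1, PSMB2, PSMB3, PSMB4, PSMB5, PSMB6, PSMC3, PSMC4, PSMD1, PSMD13, PSMD2, PSMD3, PSMD4, PSMD7 and PSMD8), where 18.2% of all genes were called in either direction. Without replicate 1, 0 were called (3.49% of all genes) and the medians were 0.07 for core and cap alike. Over the 30 members above 10 CPM, the 95% intervals of the main comparison reached from -0.24 (PSMB7, a fall of 15.5%) to 0.42 (PSMD7, a 1.34-fold rise), so larger changes lay outside them.

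**Figure D3:**
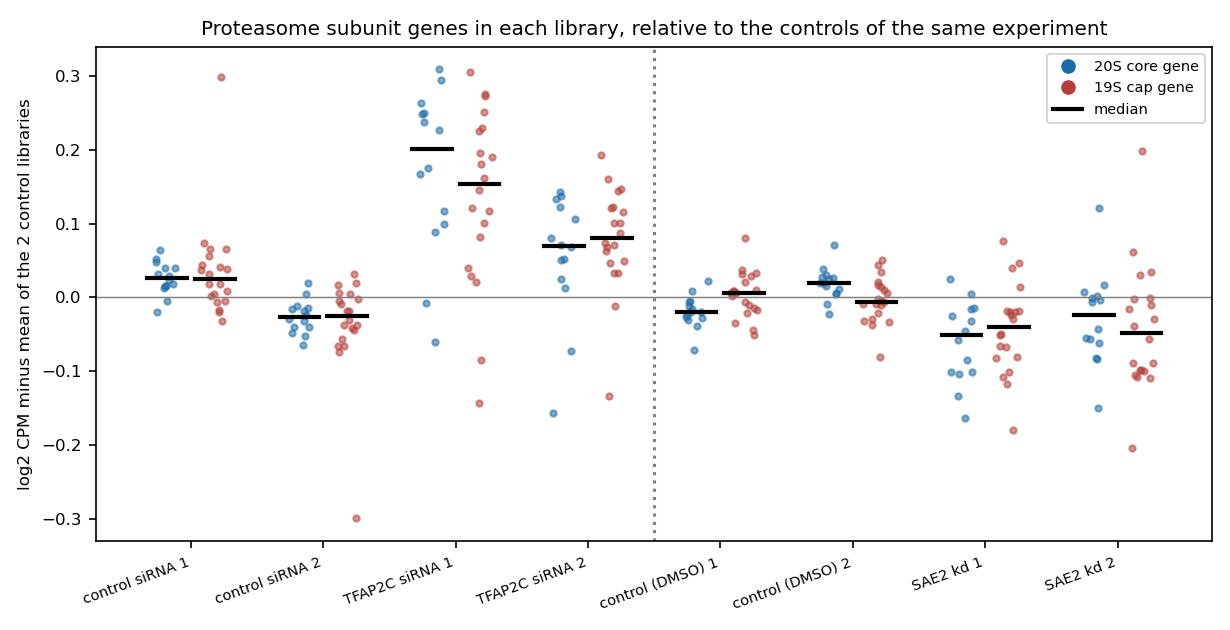
Each point is 1 member in 1 library, as log2 CPM minus the mean of the 2 control libraries of the same experiment, with core genes in blue, cap genes in red and medians as black lines. TFAP2C siRNA 1 sits highest (medians 0.20 and 0.15), TFAP2C siRNA 2 lies between it and its controls (0.07 and 0.08), and the SAE2 kd libraries lie slightly under theirs.

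The second comparison asked the same of the libraries labelled SAE2 kd. Here most subunit genes had slightly lower estimates, and again none passed the threshold. Of 34 members, 28 had a log2 fold change below 0 and 6 above (49.9% of the 13381 genes tested were above), and 6 to 11 were above when 1 library was left out, 11 without control replicate 2. The median was -0.03 for the core and -0.05 for the cap (-0.00042 over all genes). No member was called, where 9.98% of all genes were, and DESeq2 also called 0. At an unadjusted p of 0.05, 4 members were lower (11.0% of all genes) and 0 higher (11.7%), with 3 lower by DESeq2. Both SAE2 kd libraries were below both controls for 16 members (25.8% of all genes) and above both for 2 (25.5%).

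The ATPases had a median of -0.08, with 5 of 6 below 0. For those 5, both SAE2 kd libraries were below both controls, as for 25.8% of all genes. PSMC6 (chr14:53173896-53194716, hg19) was at 51.7 and 55.5 CPM in the controls and at 47.3 and 46.5 CPM with SAE2 kd (log2 fold change -0.19, SE 0.068, adjusted p = 0.0677, edgeR), the lowest adjusted p of any member. PSMC1 was the exception at 0.14, resting on 24 to 27 counts a library. The other base subunits also had a median of -0.08, and PSMD2 was at 464 and 461 CPM against 429 and 432 CPM (-0.10, SE 0.044, adjusted p = 0.140). PSMD4 was at 115 and 113 CPM against 110.3 and 106 CPM (-0.08, SE 0.056, adjusted p = 0.439).

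In the core, the beta ring had 7 of 7 members below 0, with a median of -0.04. PSMB5 (chr14:23495060-23504429) was at 187 and 193 CPM in the controls and at 177 and 171 CPM with SAE2 kd, with no overlap (-0.13, SE 0.051, adjusted p = 0.126, edgeR). PSMB6 was at 132 and 130.4 CPM against 122 and 124 CPM (-0.09, SE 0.054, adjusted p = 0.332). PSMB7 was at 183 and 187 CPM against 172 and 177 CPM (-0.08, SE 0.051, adjusted p = 0.355). The 3 catalytic genes were thus on the same side of 0 here. The alpha ring had a median of -0.01 and was led by PSMA2 at 83.1 and 86.2 CPM against 75.6 and 79.9 CPM (-0.12, SE 0.060, adjusted p = 0.221), a gene whose counts are uncertain as given above.

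The lid had a median of -0.01, with 5 of 8 members below 0. PSMD13 (chr11:236808-252984) was at 202 and 201 CPM against 186 and 187 CPM (-0.11, SE 0.050, adjusted p = 0.171). PSMD7 and PSMD14 were on the other side of 0. PSMD7 was at 137 and 135 CPM against 140 and 139 CPM (0.03, SE 0.053, adjusted p = 0.763), and PSMD14 at 211 and 217 CPM against 211 and 223 CPM (0.02, SE 0.050, adjusted p = 0.869). With PSMC1 at 0.14 and PSMA6 at 0.02 (SE 0.19, 57 to 71 counts), these had the largest estimates above 0. The chaperones had a median of -0.03.

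Against the mean of the controls, the median in the SAE2 kd libraries was -0.05 and -0.02 for the core and -0.04 and -0.05 for the cap. The controls themselves stood at -0.02 and 0.02 for the core and 0.0060 and -0.0060 for the cap, so the second core value was near their spread. Over the 32 members above 10 CPM, the 95% intervals reached from -0.33 (PSMC6, a fall of 20.6%) to 0.14 (PSMD7, a 1.10-fold rise). With library size in place of TMM scaling, PSMB5, PSMC6 and PSMD2 were called lower (10.4% of all genes called) and the medians were -0.06 for the core and -0.08 for the cap. Leaving out any 1 library gave 0 members called.

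Both experiments were then set against each other in 1 fit over the genes in both tables, as the change with TFAP2C siRNA minus the change with SAE2 kd. No member was called (2.37% of 13179 genes were, 0.903% higher and 1.47% lower), and the estimate was above 0 for 31 of 34 members (49.9% of all genes), with a median of 0.14 for the core and 0.17 for the cap. At an unadjusted p of 0.05, 13 members were higher (6.54% of all genes) and 0 lower (7.60%), and DESeq2, which also called 0, gave 7 higher. The largest difference was that of PSMB5 (0.32, SE 0.088, adjusted p = 0.0762, edgeR), followed by PSMD13 (0.28, SE 0.080, adjusted p = 0.0997) and PSMD2 (0.25, SE 0.083, adjusted p = 0.161). The lowest were PSMC1 (-0.21), PSMD9 (-0.03) and PSMB7 (-0.01). Without a filter on low counts PSMB5 and PSMD2 were called (3.51% of all genes), and without TFAP2C siRNA replicate 2, 10 members were (11.6%).

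Core and cap genes had similar shares of counts relative to each other throughout. Core genes held 0.158% and 0.152% of all counts with control siRNA and 0.171% and 0.160% with TFAP2C siRNA, and cap genes 0.224% and 0.217% against 0.243% and 0.230%. The ratio of cap to core counts was 1.42 and 1.43 in the controls and 1.42 and 1.44 with TFAP2C siRNA. In the second experiment core genes held 0.268% and 0.277% of counts in the controls and 0.258% and 0.262% with SAE2 kd, cap genes 0.360% and 0.361% against 0.341% and 0.343%, and the ratio was 1.35 and 1.31 against 1.32 and 1.31. The groups overlapped in this ratio in both experiments. With 2 libraries a group, an exact two-sided permutation test cannot go below p = 0.333.

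Genes that act with the proteasome were followed from 7 lists. These were immunoproteasome subunits, activators and an inhibitor, assembly factors, other cap subunits and bound proteins, ubiquitin genes, shuttles and the NFE2L1 pathway. With TFAP2C siRNA, 0 of 42 such genes tested were called, against 0.740% of all genes, and 4 were higher (5.68% of all genes) and 0 lower (6.92%) at an unadjusted p of 0.05. With SAE2 kd, 4 of 41 were called higher (5.52% of all genes) and 1 lower (4.47%). Estimates above 0 were found for 31 of 42 such genes with TFAP2C siRNA (49.1% of all genes) and for 30 of 41 with SAE2 kd (49.9%). NFE2L1 was at 295 and 298 CPM in the controls and at 372 and 347 CPM with SAE2 kd, and rose by 0.28 on the log2 scale (SE 0.047, adjusted p = 8.16e-05, edgeR). NFE2L2, the related regulator of antioxidant genes, was at 171 and 172 CPM against 207 and 201 CPM and rose by 0.25 (SE 0.050, adjusted p = 0.000697). NFE2L3, another factor of the family, was at 72.6 and 70.3 CPM against 82.5 and 82.0 CPM and rose by 0.20 (SE 0.060, adjusted p = 0.0263). For each of these genes both SAE2 kd libraries lay above both controls, as for 25.5% of all genes.

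**Figure D4:**
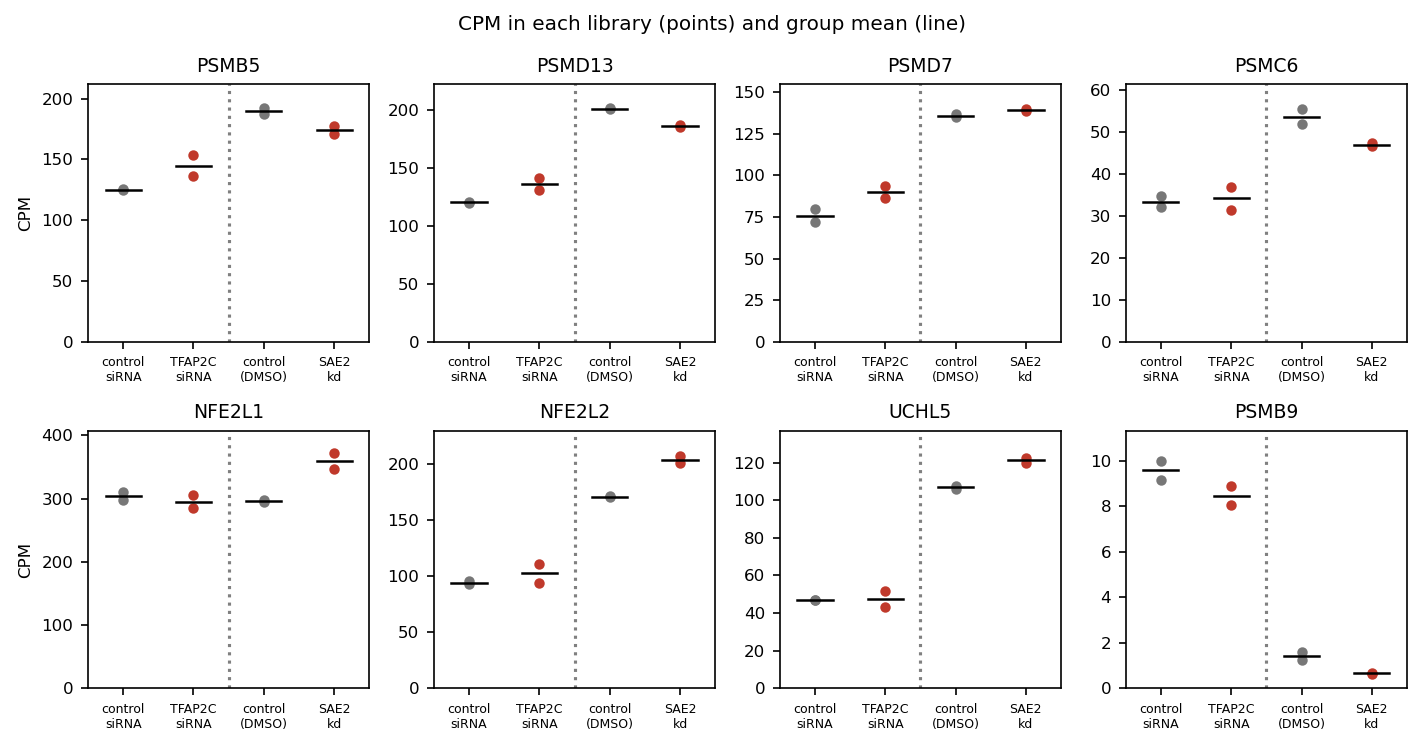
CPM in each library (points) and group mean (lines), with axes starting at 0, for 4 members (PSMB5, PSMD13, PSMD7, PSMC6) and 4 related genes (NFE2L1, NFE2L2, UCHL5, PSMB9), control groups in grey and knockdown groups in red. NFE2L1 and NFE2L2 are higher in both SAE2 kd libraries than in their controls, while the members differ by little.

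Also called was UCHL5, a cap-bound deubiquitinase (108 and 106 CPM against 120 and 123 CPM, 0.18, SE 0.056, adjusted p = 0.0334). The immunoproteasome gene PSMB9 fell by 1.10 on the log2 scale (SE 0.35, adjusted p = 0.0382), from 30 and 26 counts to 12 and 12, but its row lies on an alternate haplotype and is uncertain. NFE2L1 and NFE2L2 were called whichever library was left out (highest adjusted p 0.00106 and 0.00773). NFE2L3 (0.0501 to 0.212) and PSMB9 (0.0676 to 0.277) were not called whichever of the 4 libraries was left out. Of the fits that left out 1 library, UCHL5 was called only in that without SAE2 kd replicate 1 (highest adjusted p 0.198). With DESeq2, NFE2L3 and UCHL5 were not called (adjusted p = 0.105 and 0.0956), nor were they with library size in place of TMM (adjusted p = 0.0539 and 0.0708, edgeR).

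With TFAP2C siRNA the NFE2L1 values were 297 and 310.1 CPM in the controls and 306 and 285 CPM, overlapping (-0.04, SE 0.068, adjusted p = 0.837, edgeR). Its change with TFAP2C siRNA minus that with SAE2 kd was -0.33 (SE 0.081, adjusted p = 0.0418), the only called difference among the 39 related genes in both tables. This call was lost with the replicate number as a block (adjusted p = 0.161) and without either library of control siRNA, of the DMSO control or of SAE2 kd (highest adjusted p 0.270 without control siRNA replicate 2).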

How the data were processed

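The authors deposited raw read counts per gene in 1 table for each experiment, aligned with TopHat2 and counted with HTSeq 0.9.1 against RefSeq genes on hg19 per the labels and the study's methods. The positions in the siRNA table are those of GRCh38 with Ensembl names, so both tables differ in annotation. The strand setting is not given in the sources used here. No reads were pooled between replicates.

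Each table was filtered with filterByExpr, scaled by TMM and fitted across all its genes by the edgeR 4.0.16 quasi-likelihood test (R 4.3.3), with group as the only term and Benjamini-Hochberg adjustment over all genes (threshold 0.05). The difference between the experiments used 1 fit of all 8 libraries over the 21257 symbols in both tables. DESeq2 1.42.0 was an alternative. The procedure was tested on simulated counts with 200 genes given changes larger than any member's estimate, so smaller changes were not tried. CPM used TMM-scaled totals, and RPKM the gene lengths in the tables. The biological coefficient of variation was 6.28% for the siRNA libraries and 3.56% for the others.

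Named genes were members past the threshold, the 3 largest rises and falls of each comparison, the catalytic genes, PSMD14, PSMD4 and PSMD2, the highest and lowest per length of each group, PSMA8 and PSMB11, related genes past the threshold, and the targets. PSMA1, PSMA3, PSMA5, PSMB1, PSMB4, PSMC4 and the promoters printed fall outside this rule, which kept promoters for members past the threshold, and were chosen after their values were seen. The coordinates of members are as each table gives them, and promoters are RefSeq GRCh38.p14. A gene of the related lists is not reported here. The members and lists were chosen with earlier results of these data known. Intervals cover counting error and the spread between 2 libraries only.

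Same-numbered libraries did not deviate together (correlation of deviations -0.257 for the siRNA libraries and -0.027 for the others).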

Additional observations from a re-analysis of the deposited data

Results flagged for a closer look

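NFE2L1, the transcription factor that raises subunit genes, differed between the experiments by a test of the difference itself. Its change with TFAP2C siRNA minus its change with SAE2 kd was -0.33 on the log2 scale (95% interval -0.51 to -0.16, SE 0.081, adjusted p = 0.0418, edgeR quasi-likelihood test over 13179 genes). It lay above both controls in both SAE2 kd libraries and overlapped its controls with TFAP2C siRNA. The adjusted p ran from 0.00167 to 0.270 over fits without 1 library. In the same libraries no subunit gene was called in either comparison, and the subunit medians with SAE2 kd were -0.03 for the core and -0.05 for the cap. These libraries measure mRNA and not NFE2L1 protein or its activity. A link between NFE2L1 and the subunit genes was not tested.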

How the results depend on the processing

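Scaled by library size alone, the SAE2 kd comparison called 3 members, and its medians were -0.056 for the core and -0.077 for the cap. Only some genes were followed by value across the settings. Among these, PSMA6 (-0.0038) and PSMD14 (-0.0069) with SAE2 kd and the difference of PSMB7 (0.00013) changed sign. Members above 0 then numbered 30 of 34 with TFAP2C siRNA (31 with TMM) and 2 with SAE2 kd (6 with TMM), so further members changed sign. NFE2L3 and UCHL5 with SAE2 kd were no longer called (adjusted p = 0.0539 and 0.0708, edgeR). With no filter the difference between the experiments called 2 members. All other full-sample settings gave 0 members called in each comparison, namely DESeq2 size factors, the DESeq2 test, 10 counts or more required of each library, the replicate block and, within each experiment, all 8 libraries in 1 fit. The cause was not tested.

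Without 1 library, members called ranged from 0 to 16 with TFAP2C siRNA, from 0 to 0 with SAE2 kd and from 0 to 10 for the difference, the highest counts both without TFAP2C siRNA replicate 2. Members above 0 ranged from 27 (without control siRNA replicate 2) to 33 (without control siRNA replicate 1) of 34 with TFAP2C siRNA, and from 6 to 11 (without control replicate 2) with SAE2 kd. A lone library of a group is assumed to vary like the others. The medians ranged from 0.069 to 0.20 (core) and 0.072 to 0.16 (cap) with TFAP2C siRNA, and from -0.054 to -0.019 (core) and -0.060 to -0.039 (cap) with SAE2 kd. Among the genes followed by value, those that changed sign ranged, with TFAP2C siRNA, from -0.31 to 0.29 for PSMC1 and from -0.14 to 0.080 for PSMD9. With SAE2 kd the ranges were -0.085 to 0.12 for PSMA6, -0.024 to 0.062 for PSMD14 and -0.11 to 0.038 for UBA2. For the difference they were -0.066 to 0.052 for PSMB7, -0.44 to 0.14 for PSMC1 and -0.12 to 0.061 for PSMD9.

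With the replicate block, 172 genes were called with TFAP2C siRNA, 1308 with SAE2 kd and 173 for the difference, 0 of them members each time, and UCHL5 with SAE2 kd (adjusted p = 0.0555, edgeR) was lost beside the NFE2L1 difference. Crossing the replicate numbers of the siRNA libraries, an alternative added after seeing the data because same-numbered deviations had a correlation of -0.257, called 467 genes (3.12%) and 0 members. The lowest adjusted p of a member was then 0.0688 (PSMD7, edgeR), against 0.222 in the main comparison. Without mitochondrial counts the core share in the siRNA libraries was 0.175%, 0.168%, 0.190% and 0.177%.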
